A study of Mus musculus with 6 samples.

Results

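Axon guidance genes are the 66 gene rows whose symbols name an Eph receptor (14), an ephrin (8), a semaphorin (20), a plexin or neuropilin (11), a Slit or Robo (7), or a netrin or Unc5 receptor (6). They were picked by symbol from the 54087 gene rows of the count tables. Earlier results of these data were known when this was done. RNA came from male germ cells of C57BL/6 mice at 10 dpp (days post partum) that carry an Id4-GFP reporter and were sorted for bright and medium GFP, and Id4 is a gene of undifferentiated spermatogonia. The 3 control libraries were from Dnmt3A WT/WT mice and the 3 mutant libraries from Dnmt3A KO/KO mice, which lack working copies of a de novo DNA methyltransferase according to their label. The labels name neither the deleted exons nor a Cre driver, and do not say whether the numbered samples of a genotype are different animals. The p-values then cover only the spread among these samples, which may be technical.

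These proteins were named for steering growing axons, and they work as pairs of cues and receptors at the cell surface. Ephrins are held on the membrane and bind Eph receptor tyrosine kinases on a neighbouring cell, semaphorins bind plexins with or without a neuropilin, Slits bind Robo receptors, and netrins bind Dcc and the Unc5 receptors. The same pairs act outside the nervous system in cell sorting, migration, adhesion and vessel growth, and germ cells of the postnatal testis lie among somatic cells that carry many of them.

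Of the 66 members, 63 had enough counts to be tested in the fit over all 21314 genes (a quasi-likelihood fit in edgeR, with a Benjamini-Hochberg threshold of 0.05). In KO/KO 9 members rose and 13 fell. These are 14.3% and 20.6% of the members tested, beside 8.33% higher and 6.42% lower over all genes, and in either direction 34.9% beside 14.8%. The median log2 fold change (the log2 ratio of KO/KO over WT/WT) of the members was -0.11 and that of all genes 0.00. Members were somewhat more abundant than the average gene tested, with a median of 9.15 CPM (the count scaled by the total of its library) against 5.89 CPM over all genes. Among genes with a mean of at least 1 CPM, 21 of 53 members and 17.4% of all genes passed. Receptors gave 5 rises and 7 falls among 30 tested, and ligands gave 4 rises and 6 falls among 33. The 3 members left out by the filter on low counts were Epha10, with 3, 9 and 1 counts in WT/WT and 0 in every KO/KO library, Epha3 with 0 to 11 counts and Robo3 with 5 to 14 counts. A count of 0 in these KO/KO libraries allows a level of up to 0.0671, 0.0609 and 0.0466 CPM, by counting error only.

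**Figure D1:**
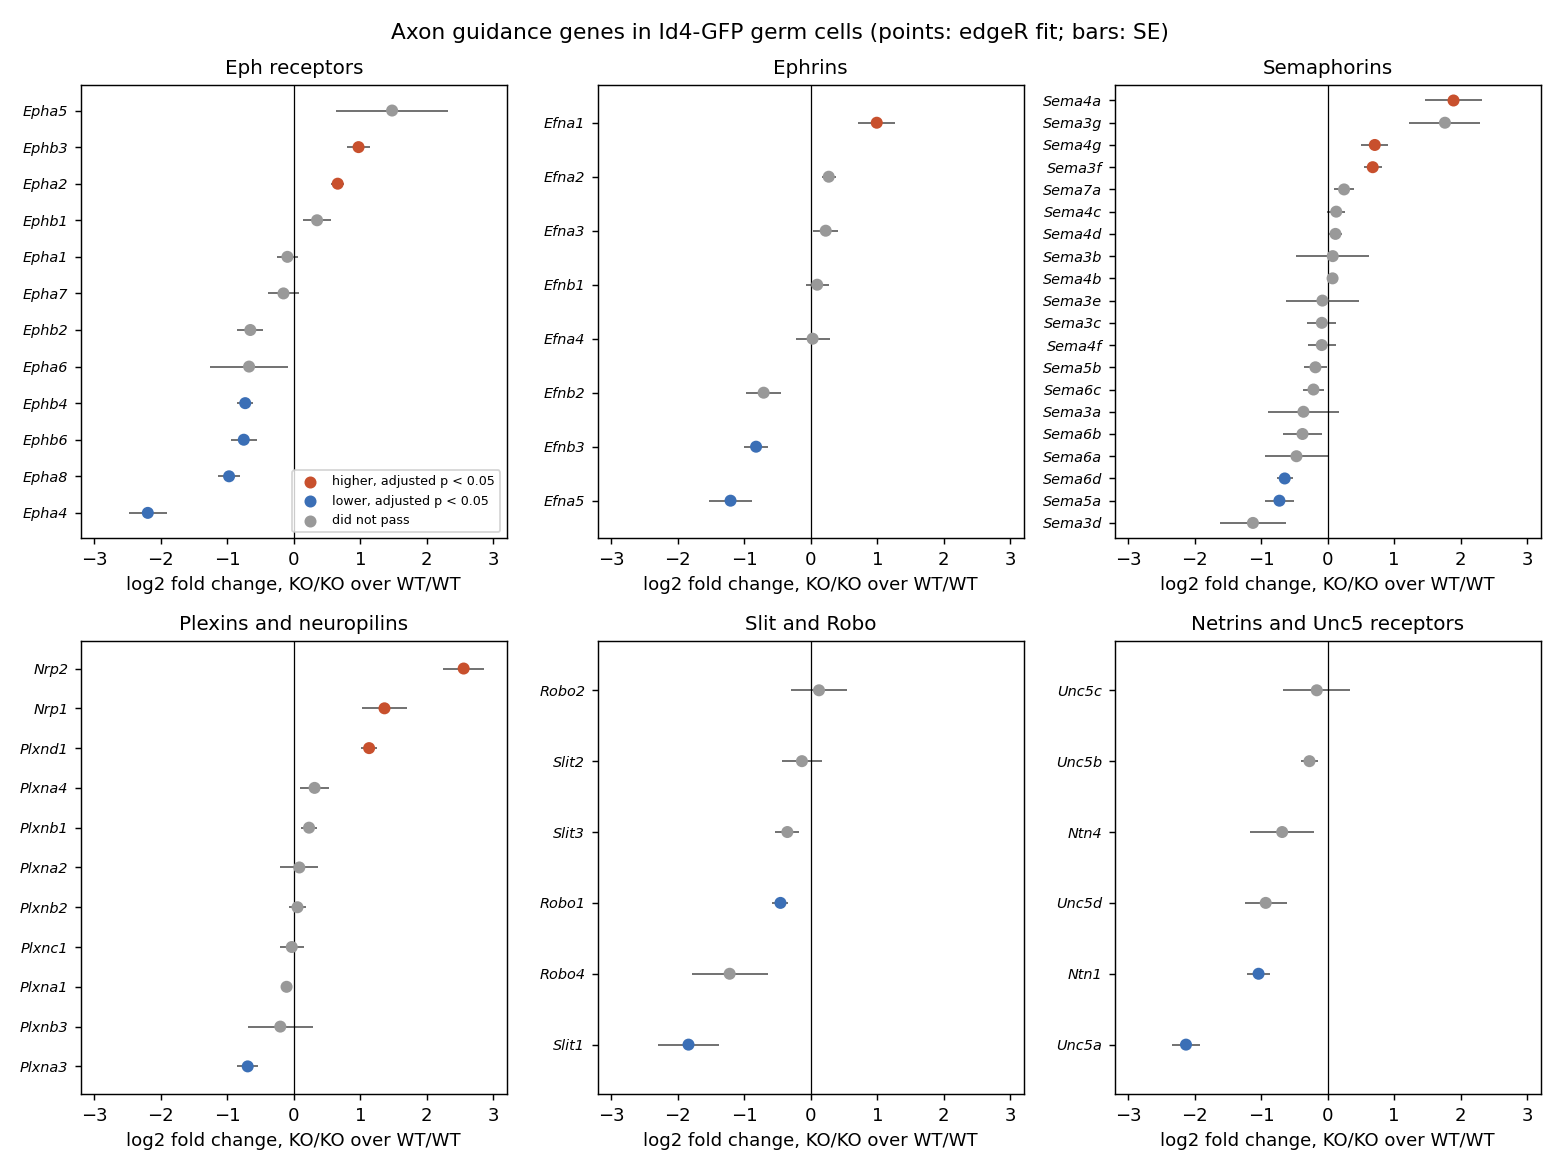
Log2 fold change of KO/KO over WT/WT (horizontal axis) for the 63 tested members, one panel per family. Points are the edgeR estimates, bars are standard errors, and colour marks members that passed the test higher or lower. The largest rise is that of Nrp2 at 2.55 and the largest falls are those of Epha4 at -2.20 and Unc5a at -2.13. All 6 tested netrin and Unc5 genes lie below 0, of which 2 passed, beside 10582 of all 21314 genes tested below 0.

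The libraries held between 42681201 and 61749155 counts on genes. Dnmt3a, the targeted gene, stood at 188 to 215 CPM in WT/WT and at 90.2 to 104 CPM in KO/KO (log2 ratio -1.02, SE 0.09, edgeR adjusted p = 0.000222). The KO/KO libraries differed among themselves more than the WT/WT libraries: on the first principal component KO/KO replicate 1 lay at 29.2 and the other two at 57.6 and 64.5, against -54.2 to -48.5 in WT/WT. KO/KO replicates 2 and 3 lay at 50.8 and -51.8 on the second component. Without KO/KO replicate 1, 8 members rose and 10 fell; without replicate 2, 9 and 15; without replicate 3, 7 and 11. Leaving out a WT/WT library gave fewer falls, 6 without replicate 1, 6 without replicate 2 and 9 without replicate 3, and 6 rose in each of these fits. Germ cell markers were abundant in all libraries, with 8 listed genes summing to between 1571 and 1733 CPM, but single markers moved in opposite directions. Id4, the gene of the sort reporter, rose from 37.0, 38.1 and 38.5 CPM to 86.8, 176 and 159 CPM, and Gfra1, a GDNF co-receptor of undifferentiated spermatogonia, rose from 99.9 to 121 CPM to a range of 197 to 274 CPM. Zbtb16, another gene of undifferentiated spermatogonia, fell (log2 ratio -0.56, edgeR adjusted p = 0.0043), and the other 5 of the list did not pass. Kit, which marks differentiating spermatogonia, was outside the list and fell from 118, 98.9 and 150 CPM to 38.6, 5.64 and 8.44 CPM (log2 ratio -2.81, edgeR adjusted p = 0.0129). The part of this difference between germ cell genes in the changes of the axon guidance genes was not tested. RNA of somatic cells was present as well: 10 Sertoli markers summed to between 438 and 681 CPM in WT/WT and between 467 and 682 CPM in KO/KO. Of these 10 only Rhox5 passed. It rose from 1.05, 1.02 and 0.368 CPM in WT/WT to 20.6, 21.3 and 28.8 CPM in KO/KO (log2 ratio 4.84, edgeR adjusted p = 8.44e-05). In bulk RNA, a change in the number of cells of a type and a change in RNA per cell cannot be told apart.

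The neuropilins and plexin D1 rose. Nrp2, a co-receptor for class 3 semaphorins and for VEGF-C, gave 3.91, 2.97 and 2.18 CPM across WT/WT and 12.5, 14.4 and 26.3 CPM across KO/KO. Every KO/KO library was above every WT/WT library, with KO/KO replicate 3 the highest (log2 ratio 2.55, SE 0.31, edgeR adjusted p = 0.00107). Nrp1, the related co-receptor for Sema3a and VEGF-A, gave 2.26, 2.16 and 0.908 CPM with WT/WT and 3.64, 4.30 and 5.80 CPM with KO/KO, again without overlap (log2 ratio 1.36, SE 0.34, edgeR adjusted p = 0.0255). Plxnd1, a plexin best known from endothelial cells and a receptor of Sema3e, gave 135, 122 and 154 CPM across WT/WT and 256, 332 and 311 CPM across KO/KO (log2 ratio 1.13, SE 0.12, edgeR adjusted p = 0.000538). Sema3e itself was scarce in both genotypes, at 0.233 to 1.07 CPM over the 6 libraries. The call of Nrp1 was lost without WT/WT replicate 2, WT/WT replicate 3 or KO/KO replicate 3 (edgeR adjusted p between 0.0558 and 0.0644).

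Some genes of endothelial cells, in which neuropilins and plexin D1 are prominent, were higher in KO/KO as well. Of 8 endothelial markers 6 could be tested and 4 rose (Cdh5, Kdr, Flt1 and Vwf), and the whole list summed to between 33.8 and 40.7 CPM in WT/WT and between 119.6 and 159 CPM in KO/KO. Kdr and Flt1 encode VEGF receptors that signal together with neuropilins. Pecam1, at 2.7 to 5.23 CPM over the 6 libraries, and Tek, at 2.29 to 3.39 CPM, were tested and did not pass. Vwf, which rose, was lower than both in WT/WT, at 1.52 to 2.06 CPM. Esam, at 0.0406 to 0.457 CPM, and Emcn, at 0 to 0.137 CPM, had too few counts to be tested. None of the 8 was at 0 in every library. Among the axon guidance genes themselves, Robo4, an endothelial Robo, had 1.12, 0.956 and 0.589 CPM for WT/WT against 0.179, 0.203 and 0.729 CPM for KO/KO and did not pass (edgeR adjusted p = 0.187). The part of endothelial RNA in the rise of Nrp1, Nrp2 and Plxnd1 was not tested.

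Among the other plexins, Plxna3 on the X chromosome was the only one of 8 tested to pass. It gave 29.2, 27.6 and 32.3 CPM across WT/WT and 23.0, 16.1 and 16.0 CPM across KO/KO, with no overlap (log2 ratio -0.69, SE 0.16, edgeR adjusted p = 0.0170). This call was lost without any 1 of the WT/WT libraries (edgeR adjusted p between 0.0527 and 0.0766), so that no plexin fell in those fits. Plxna1, a receptor shared by class 3 and class 6 semaphorins, was the most abundant member per length, at 424, 373 and 422 CPM and at 396, 365 and 369 CPM (log2 ratio -0.11, SE 0.08, edgeR adjusted p = 0.397). Plxna2, Plxna4, Plxnb1, Plxnb2, Plxnb3 and Plxnc1 had log2 fold changes between -0.20 and 0.31, and their genotypes overlapped.

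**Figure D2:**
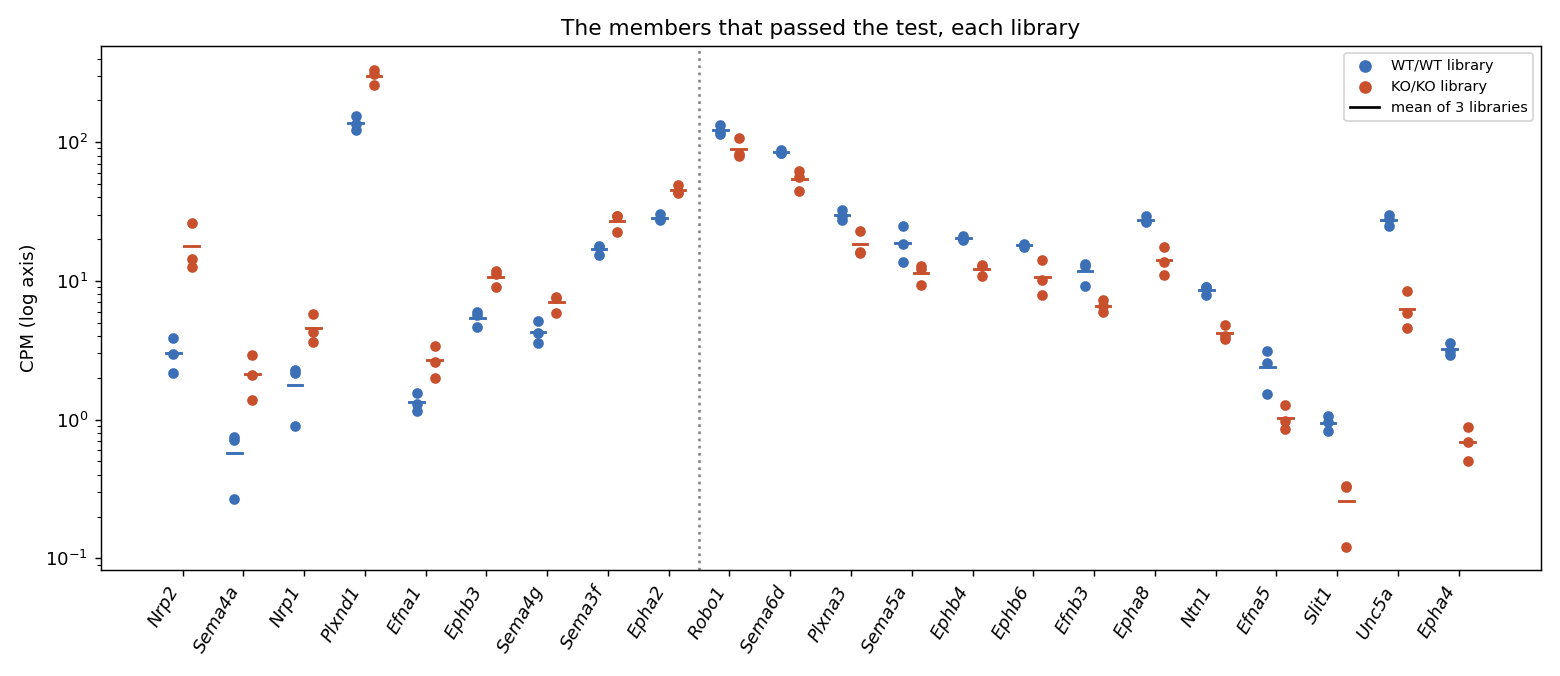
CPM on a log axis in each of the 6 libraries for the 22 members that passed the test, ordered by log2 fold change, with the 9 rises left of the dotted line. Each point is 1 library and each short line the mean of 3 libraries. The genotypes do not overlap for any of the 22, beside 35.8% of all genes tested without overlap. These 22 were picked by a test of the same values, so this adds no support. The KO/KO libraries of Nrp2 run from 12.5 to 26.3 CPM.

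Semaphorins, the ligands of plexins, changed in part and in both directions: of 20 tested 3 rose and 2 fell, with a median log2 fold change of -0.08. That is 15% and 10% of them, beside 8.33% and 6.42% of all genes tested. Sema3f, the secreted ligand of Nrp2, gave 15.3, 17.6 and 17.9 CPM across WT/WT and 22.7, 29.3 and 29.2 CPM across KO/KO (log2 ratio 0.68, SE 0.14, edgeR adjusted p = 0.00988). Both this ligand and its receptor Nrp2 were thus higher in every KO/KO library. Sema4a, a membrane semaphorin also known from immune cells and retina, was low and gave 0.708, 0.748 and 0.270 CPM across WT/WT and 1.39, 2.11 and 2.95 CPM across KO/KO (log2 ratio 1.89, SE 0.43, edgeR adjusted p = 0.0174). Its 31, 36 and 11 counts in WT/WT and 62, 104 and 190 counts in KO/KO give it less precision than the others. Sema4g, of the same class, gave 4.18, 5.15 and 3.56 CPM with WT/WT and 5.84, 7.69 and 7.54 CPM with KO/KO (log2 ratio 0.71, SE 0.20, edgeR adjusted p = 0.0436).

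The semaphorins that fell are transmembrane proteins of other classes. Sema6d, a ligand of Plxna1, gave 88.1, 82.9 and 83.9 CPM across WT/WT and 62.3, 56.3 and 44.3 CPM across KO/KO, with the WT/WT libraries close together (log2 ratio -0.65, SE 0.12, edgeR adjusted p = 0.00725). Sema5a, which carries thrombospondin repeats, gave 24.7, 18.4 and 13.6 CPM with WT/WT and 12.2, 9.33 and 12.7 CPM with KO/KO (log2 ratio -0.73, SE 0.21, edgeR adjusted p = 0.0485), and lies just inside the threshold. Just outside it was Sema3g, at 0.160, 0.145 and 0.442 CPM for WT/WT against 0.671, 1.16 and 0.698 CPM for KO/KO (log2 ratio 1.76, edgeR adjusted p = 0.0536). By class, 1 of 7 class 3 genes and 2 of 6 class 4 genes rose. In class 5, 1 of 2 genes fell, and in class 6, 1 of 4 fell. All 4 class 6 genes had log2 fold changes below 0, as had 10582 of all 21314 genes tested. Of these 4, Sema6a, Sema6b and Sema6c overlapped between genotypes. Sema4d, a ligand of Plxnb1, was the most abundant semaphorin per length at 94.1, 87.3 and 97.7 CPM for WT/WT against 95.7, 112 and 94.5 CPM for KO/KO (log2 ratio 0.12, edgeR adjusted p = 0.453). Sema7a, a ligand of Plxnc1, came next at 37.5, 30.5 and 27.4 CPM and 31.2, 41.0 and 40.9 CPM (log2 ratio 0.25, edgeR adjusted p = 0.308).

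Several semaphorin calls were lost when 1 library was left out. Sema5a lost its call without any 1 library other than WT/WT replicate 3 (edgeR adjusted p between 0.0586 and 0.179), Sema4g without any 1 library other than KO/KO replicate 1 (between 0.0678 and 0.158), Sema4a without WT/WT replicate 3 (0.0527) and Sema3f without WT/WT replicate 1 (0.0509). Without WT/WT replicate 1 only 1 semaphorin, Sema4a, rose. The remaining 15 semaphorins had log2 fold changes from -1.13 for Sema3d to 1.76 for Sema3g. Sema3c, a secreted ligand for both neuropilins, spread widely within each genotype and overlapped between them, at 35.7, 30.1 and 19.9 CPM for WT/WT against 22.6, 24 and 34.0 CPM for KO/KO. The summed Sertoli markers ran in the same order, at 681, 569 and 438 CPM and at 467, 521 and 682 CPM. So did other members, among them Plxnb2 and Efnb1. The part of Sertoli RNA in the levels of Sema3c and of these members was not tested.

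Eph receptors gave 2 rises and 4 falls among 12 tested, with a median log2 fold change of -0.40. These are 16.7% and 33.3%, beside 8.33% higher and 6.42% lower over all genes tested. Epha4, which binds ephrins of both classes, had the largest fall of all members: 2.95, 3.57 and 3.12 CPM for WT/WT against 0.693, 0.507 and 0.885 CPM for KO/KO (log2 ratio -2.20, SE 0.28, edgeR adjusted p = 0.00131). The highest KO/KO library was well below the lowest WT/WT library. Epha8, a receptor of ephrin-A ligands, gave 29.5, 27.0 and 26.4 CPM with WT/WT and 11.1, 17.4 and 13.7 CPM with KO/KO (log2 ratio -0.97, SE 0.16, edgeR adjusted p = 0.00419). Ephb4, the receptor of ephrin-B2 that marks veins in the vasculature, gave 21.1, 19.6 and 20.2 CPM with WT/WT and 12.9, 10.9 and 12.8 CPM with KO/KO (log2 ratio -0.73, SE 0.12, edgeR adjusted p = 0.00440). Of the 8 endothelial markers 4 rose in KO/KO, and the part of endothelial RNA in the level of Ephb4 was not tested. Ephb6, whose kinase domain is inactive, gave 18.4, 17.5 and 18.3 CPM with WT/WT and 14.2, 7.87 and 10.1 CPM with KO/KO (log2 ratio -0.75, SE 0.20, edgeR adjusted p = 0.0309).

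Epha2 and Ephb3 went the other way. Epha2, an ephrin-A receptor of many epithelia, gave 30.2, 27.9 and 27.5 CPM across WT/WT and 42.7, 48.8 and 43.9 CPM across KO/KO (log2 ratio 0.66, SE 0.10, edgeR adjusted p = 0.00273). Ephb3, an ephrin-B receptor known for cell positioning in the intestinal crypt, gave 5.94, 5.72 and 4.64 CPM with WT/WT and 11.2, 8.99 and 11.8 CPM with KO/KO (log2 ratio 0.97, SE 0.18, edgeR adjusted p = 0.00611). Epha2 and Epha8 were nearly level per length in WT/WT, at 6.11 ± 0.32 and 5.87 ± 0.35 CPM per kb of exon (SD, n = 3 each), and stood at 9.66 ± 0.69 and 2.99 ± 0.68 CPM per kb in KO/KO. Ephb2 lay just outside the threshold at 17.8, 14.2 and 12 CPM and 7.47, 11.4 and 9.11 CPM (log2 ratio -0.65, edgeR adjusted p = 0.0535). Epha5 had 0.183 CPM in KO/KO replicate 2 but 2.73 and 2.79 CPM in the others, against 0.166 to 1.08 CPM in WT/WT. Without KO/KO replicate 2 there were 4 higher Eph receptors, with Epha5 (edgeR adjusted p = 0.0331) and Ephb1 (0.0322) added. Ephb6 lost its call without any 1 WT/WT library or KO/KO replicate 3 (edgeR adjusted p between 0.0693 and 0.0971). Epha1, Epha6, Epha7 and Ephb1 had log2 fold changes between -0.67 and 0.35 and did not pass.

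Among the ephrins, which these receptors bind, 1 rose and 2 fell of 8 tested. With so few genes this is 12.5% and 25%, beside 8.33% and 6.42% of all genes tested. Efna1, the usual partner of Epha2 and a GPI-anchored ligand, gave 1.55, 1.16 and 1.30 CPM across WT/WT and 3.40, 2.62 and 2.00 CPM across KO/KO (log2 ratio 0.99, SE 0.28, edgeR adjusted p = 0.0404). Efna5, also GPI-anchored, gave 3.11, 2.58 and 1.52 CPM with WT/WT and 0.984, 0.852 and 1.27 CPM with KO/KO (log2 ratio -1.21, SE 0.33, edgeR adjusted p = 0.0354). Efnb3, a transmembrane ligand, gave 13.2, 12.7 and 9.20 CPM with WT/WT and 7.27, 6.61 and 5.97 CPM with KO/KO (log2 ratio -0.82, SE 0.18, edgeR adjusted p = 0.0141). Efnb2, the ligand of Ephb4, also lay lower in every KO/KO library, at 5.0, 3.28 and 6.23 CPM against 3.17, 2.47 and 3.21 CPM, without passing (log2 ratio -0.71, edgeR adjusted p = 0.0975).

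The ephrins that were most abundant per length did not pass. Efna2 gave 20.6, 20.7 and 20.7 CPM across WT/WT and 26, 25.5 and 23.3 CPM across KO/KO (log2 ratio 0.27, edgeR adjusted p = 0.116). Efna4 gave 6.44, 5.30 and 7.06 CPM with WT/WT and 7.53, 3.98 and 7.63 CPM with KO/KO (log2 ratio 0.03, edgeR adjusted p = 0.957). Efna3 and Efnb1 had log2 fold changes of 0.22 and 0.10. Efna1, Efna3 and Efna4 lie close together on chromosome 3, at 89271733 to 89281142, 89313899 to 89322965 and 89333390 to 89338028 (GRCm38), and of these Efna1 passed the test. Efna1 lost its call without any 1 library other than KO/KO replicate 3 (edgeR adjusted p between 0.0603 and 0.159). Efna5 lost it without WT/WT replicate 1 or 2 or KO/KO replicate 1 or 2 (between 0.0705 and 0.141), and Efnb3 without WT/WT replicate 1 or 2 (0.0658 to 0.0766).

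No member of the netrin and Unc5 group rose, and 2 of 6 fell, with a median log2 fold change of -0.81. Over all genes tested 8.33% rose and 6.42% fell, so that the lack of a rise among 6 genes says little. Unc5a, a netrin receptor with an intracellular death domain, gave 29.9, 27.7 and 24.8 CPM across WT/WT and 8.47, 4.54 and 5.83 CPM across KO/KO (log2 ratio -2.13, SE 0.21, edgeR adjusted p = 0.000413). Ntn1, its secreted ligand, gave 9.07, 9.0 and 7.92 CPM with WT/WT and 4.0, 4.81 and 3.83 CPM with KO/KO (log2 ratio -1.04, SE 0.17, edgeR adjusted p = 0.00388). Ligand and receptor were thus lower in all KO/KO libraries, and these calls held in every alternative tried. Unc5b gave 20.1, 17.8 and 22.9 CPM with WT/WT and 17.7, 15.9 and 16.6 CPM with KO/KO (log2 ratio -0.28, edgeR adjusted p = 0.184). Unc5d gave 14.7, 11.9 and 11.6 CPM with WT/WT and 7.42, 9.39 and 3.27 CPM with KO/KO, lower in every KO/KO library without passing (log2 ratio -0.93, edgeR adjusted p = 0.0793), and it passed without KO/KO replicate 2 (0.0220). Ntn4 and Unc5c had log2 fold changes of -0.69 and -0.16. Dcc, the attractive netrin receptor, was barely present at 0.0811 to 0.147 CPM and was not tested.

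Of 6 Slit and Robo genes tested none rose and 2 fell (median log2 fold change -0.40), beside 8.33% higher and 6.42% lower over all genes. With 6 genes tested, the lack of a rise says little here too. Robo1, the most abundant Slit receptor here, gave 134, 120.4 and 115 CPM across WT/WT and 80.0, 107 and 81.8 CPM across KO/KO, with KO/KO replicate 2 nearest to WT/WT (log2 ratio -0.46, SE 0.12, edgeR adjusted p = 0.0329). Slit1, a scarce ligand, gave 0.822, 0.956 and 1.05 CPM with WT/WT and 0.335, 0.122 and 0.326 CPM with KO/KO (log2 ratio -1.84, SE 0.46, edgeR adjusted p = 0.0264). Slit3, the abundant Slit, gave 46.9, 42.9 and 34.8 CPM with WT/WT and 28.6, 42.4 and 26.6 CPM with KO/KO (log2 ratio -0.35, edgeR adjusted p = 0.231), and passed without KO/KO replicate 2 (log2 ratio -0.59, edgeR adjusted p = 0.0186). Slit2 and Robo2 had log2 fold changes of -0.13 and 0.12. Without any 1 WT/WT library no member of this group was called: Slit1 gave an edgeR adjusted p between 0.0669 and 0.101 there. Robo1 lost its call in those fits and without KO/KO replicate 1 or 3 (0.0662 to 0.120).

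Some markers of interstitial stroma were lower in KO/KO as well. The 6 stromal markers summed to between 76.7 and 106 CPM in WT/WT and between 36.9 and 53.4 CPM in KO/KO, and 2 of 5 tested fell. These were Col1a1, with means of 66.4 and 24.3 CPM, which made up most of the drop in the sum, and Pdgfra, with means of 19.7 and 12.9 CPM. Dcn, Col1a2 and Tcf21 did not pass and overlapped between genotypes, and Lum was at 0 to 0.157 CPM. The nerve and glia list summed to 270.1 to 341 CPM and 161 to 185 CPM, and Uchl1, which spermatogonia also express, made up most of it; Sox10 was the other member that fell. Peritubular myoid markers summed to 5.96 to 19.3 CPM and 8.56 to 12.1 CPM, Leydig markers to 6.28 to 15.7 CPM and 3.57 to 7.22 CPM, and macrophage and leukocyte markers to 1.80 to 2.53 CPM and 4.24 to 5.29 CPM. The part of all these cell types in the changes of the axon guidance genes was not tested.

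**Figure D3:**
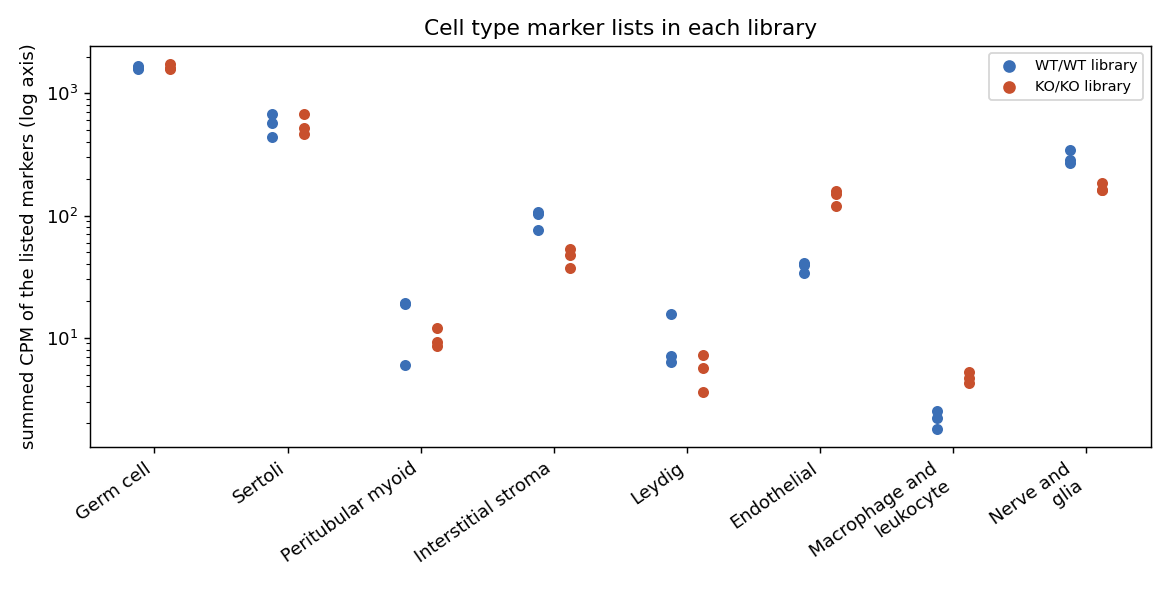
Summed CPM of each marker list (log axis) in the 3 WT/WT and 3 KO/KO libraries, 1 point per library. The germ cell sums overlap between genotypes although 2 of the 8 genes rose and 1 fell, the endothelial sums are 33.8 to 40.7 CPM in WT/WT and 119.6 to 159 CPM in KO/KO, and the stromal sums are 76.7 to 106 CPM and 36.9 to 53.4 CPM.

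Levels of different genes were compared per length, as CPM per kb of exon. In WT/WT the order began with Plxna1 at 44.9 ± 3.17, Plxnd1 at 18.7 ± 2.22, Sema4d at 12.1 ± 0.69, Efna2 at 9.69 ± 0.03 and Sema7a at 9.64 ± 1.57 CPM per kb (SD, n = 3), and the last 2 did not differ beyond their spread. In KO/KO Plxnd1 reached 41.0 ± 5.37 CPM per kb beside 41.6 ± 1.88 for Plxna1, so the leading plexins were no longer apart by more than their spread. Summed over the family, plexins and neuropilins gave 81.9 to 93.5 CPM per kb in WT/WT and 105 to 113 in KO/KO. The netrin and Unc5 group gave 12.8 to 16.3 and 6.06 to 7.14 CPM per kb, without overlap. Slit and Robo gave 13.2 to 16.5 and 9.82 to 13.7, Eph receptors 27.5 to 31.1 and 26.2 to 27.2, ephrins 23.9 to 26.6 and 24.4 to 28.0, and semaphorins 67.3 to 78.1 and 66.6 to 74.3 CPM per kb. These sums follow the most abundant members, so that the rise of Nrp2, at 0.255 and 1.5 CPM per kb, hardly enters the first.

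**Figure D4:**
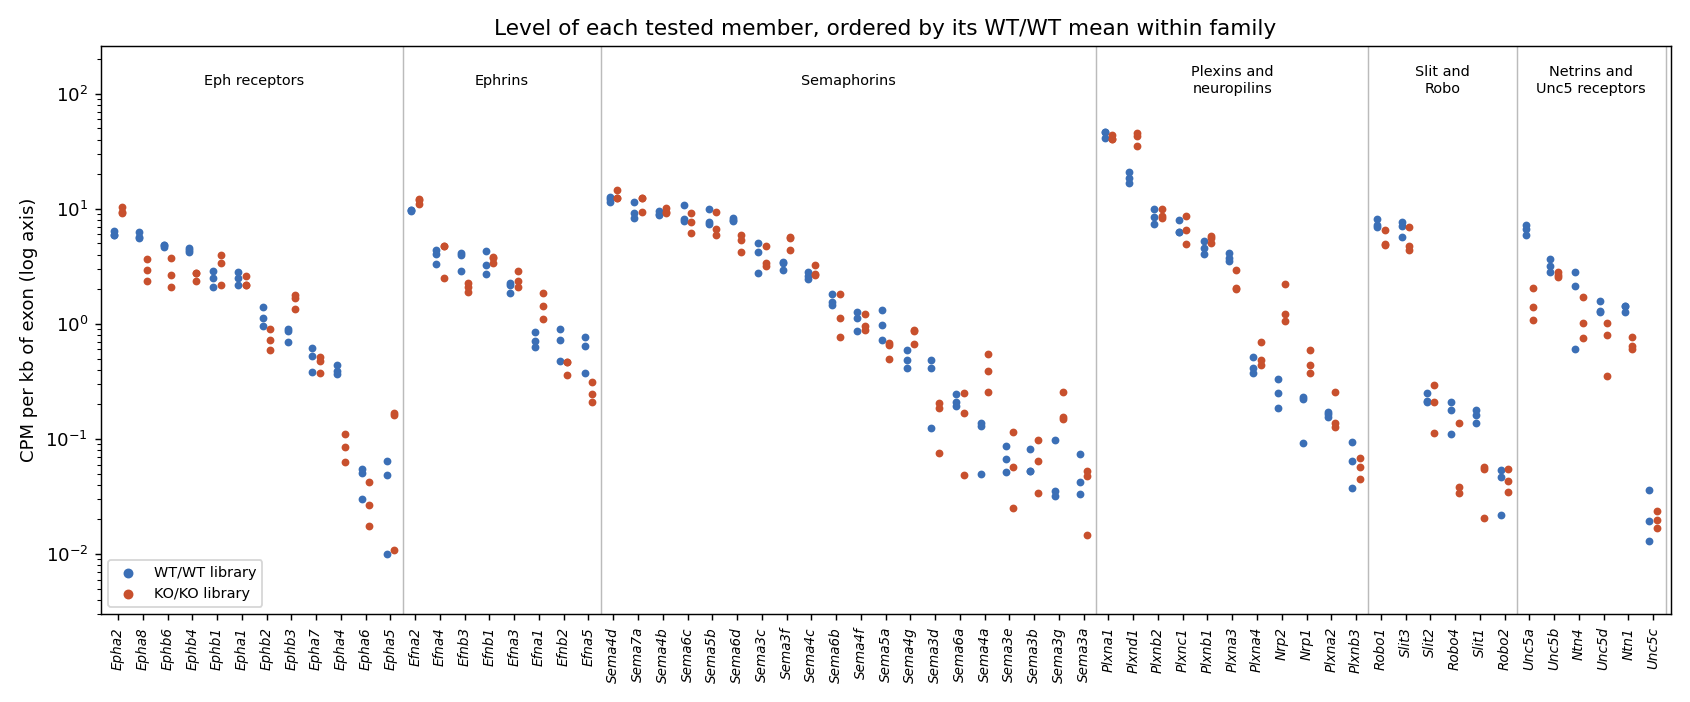
Level of the 63 tested members as CPM per kb of exon (log axis), 1 point per library, ordered within each family by the WT/WT mean. Plxna1 and Plxnd1 are highest, at 44.9 and 18.7 CPM per kb in WT/WT.

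Counted together, the genotypes were fully separated for 11 of the 63 tested members with KO/KO above WT/WT and for 17 with KO/KO below, beside 18.2% and 17.5% of all genes tested. The share of members separated upward was thus near that of all genes, and the share separated downward was above it. The 6 separated members that did not pass the test were Sema3g and Efna2 (higher) and Ephb2, Efnb2, Unc5b and Unc5d (lower). The genotypes did not overlap for any of the 22 members that passed, which the test had already picked from these same values. Of the 22, 10 (Nrp2, Plxnd1, Epha2, Ephb3, Epha4, Epha8, Ephb4, Sema6d, Ntn1 and Unc5a) passed in all 13 alternatives tried.

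Upstream sequence is shown for the 3 largest rises and 3 largest falls among the members that passed the test and are in the RefSeq promoter table, because DNA methylation by Dnmt3a acts on CpG dinucleotides, given in capitals. Each is the stretch from 250 to 51 bases before the most upstream RefSeq start, 5′ to 3′ on the gene's strand (GRCm38.p6): chr1:62703067-62703266 plus strand for Nrp2, chr3:88461233-88461432 minus strand for Sema4a, chr8:128358823-128359022 plus strand for Nrp1, chr1:77515139-77515338 minus strand for Epha4, chr13:54949161-54949360 plus strand for Unc5a and chr17:62881368-62881567 minus strand for Efna5.
Nrp2: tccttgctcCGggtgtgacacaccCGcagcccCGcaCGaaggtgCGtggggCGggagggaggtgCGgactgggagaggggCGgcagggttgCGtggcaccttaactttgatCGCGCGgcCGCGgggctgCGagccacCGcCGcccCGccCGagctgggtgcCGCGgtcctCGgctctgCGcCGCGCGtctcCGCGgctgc
Sema4a: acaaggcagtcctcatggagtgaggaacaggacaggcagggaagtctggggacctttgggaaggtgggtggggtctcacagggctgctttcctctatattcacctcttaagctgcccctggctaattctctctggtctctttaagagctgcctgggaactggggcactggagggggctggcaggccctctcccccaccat
Nrp1: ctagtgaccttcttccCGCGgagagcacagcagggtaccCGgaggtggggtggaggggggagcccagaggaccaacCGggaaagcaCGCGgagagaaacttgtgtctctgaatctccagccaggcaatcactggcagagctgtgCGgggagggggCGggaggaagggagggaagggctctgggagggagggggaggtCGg
Epha4: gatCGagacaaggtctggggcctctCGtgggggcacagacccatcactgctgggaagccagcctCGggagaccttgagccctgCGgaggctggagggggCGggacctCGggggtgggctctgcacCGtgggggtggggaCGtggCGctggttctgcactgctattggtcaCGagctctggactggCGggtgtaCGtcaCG
Unc5a: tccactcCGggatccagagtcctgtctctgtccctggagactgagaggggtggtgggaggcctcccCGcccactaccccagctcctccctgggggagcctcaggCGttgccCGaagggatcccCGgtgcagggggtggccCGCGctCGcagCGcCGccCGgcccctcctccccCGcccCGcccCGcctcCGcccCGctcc
Efna5: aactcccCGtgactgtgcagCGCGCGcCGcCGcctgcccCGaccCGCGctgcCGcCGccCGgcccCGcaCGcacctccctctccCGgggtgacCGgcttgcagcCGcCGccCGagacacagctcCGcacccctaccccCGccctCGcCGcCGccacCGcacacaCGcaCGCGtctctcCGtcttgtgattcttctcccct

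The motif counted was CG, which reads the same on both strands. Among the rises Nrp2 had 28 CpG in its 200 bases, whereas Sema4a had none and Nrp1 had 9. The count of Nrp2 was above that of 97.2% of all 27025 genes in the table, tested or not, whose median was 4. Among the falls Epha4 had 13, Unc5a 16 and Efna5 29. The members that fell had between 5 and 35 CpG and those that rose between 0 and 28. Over the 57 members in the table the median was 13, over the 8 that rose 11.5, over the 10 that fell 12.5 and over the 36 that did not pass 13. Of the members 98.2% had at least 1 CpG in the window, beside 97.8% of all tested genes in the table, whose median was 11. Sema4a has 4 RefSeq starts in the table. The GENCODE M21 annotation starts Nrp1 at 128358604 on chromosome 8, so the window of Nrp1 lies inside that annotated gene. For both genes the start in use in these cells is not known from gene counts. Methylation was not measured in these files. Ntn1, Plxna1, Plxna4, Unc5d, Sema3b, Sema3f, Sema6a, Efnb3 and Slit1 were not among the 57.

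Other genes of the same pathways were read from the same fit. Of 78 listed co-receptors, further ligands, effectors and sheddases 71 were tested, 11 rose and 8 fell, and the median log2 ratio was 0.04. These rises and falls are 15.5% and 11.3% of those tested, beside 8.33% and 6.42% of all genes. Without WT/WT replicate 2 there were 6 rises and without WT/WT replicate 3 there were 7. Among 14 co-receptors and other receptors 4 rose and 4 fell, 28.6% in each direction. Met, the HGF receptor that associates with B plexins, fell from 23.3 ± 2.44 to 5.87 ± 1.30 CPM (SD, n = 3 each, log2 ratio -1.99, SE 0.18, edgeR adjusted p = 0.000282). Dscam, an adhesion protein that also binds netrin, rose from 3.30 ± 0.37 to 8.25 ± 2.51 CPM (log2 ratio 1.32, SE 0.23, edgeR adjusted p = 0.00569). Of 5 further ligands tested 2 fell, and each is a secreted or anchored cue outside the families above. Rgma, a ligand of neogenin, fell from 20.1 ± 2.22 to 4.22 ± 1.33 CPM (log2 ratio -2.26, SE 0.22, edgeR adjusted p = 0.00035). Draxin, which binds netrin and Dcc, fell from 2.33 ± 0.04 to 0.369 ± 0.03 CPM (log2 ratio -2.65, SE 0.28, edgeR adjusted p = 0.00062).

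Of 48 cytoplasmic effectors and adaptors 6 rose and 2 fell, and most did not pass. In either direction 16.7% of them passed, near the 14.8% of all genes tested. Vasp, an actin regulator, rose by 0.68 on the log2 scale (SE 0.10, edgeR adjusted p = 0.00253). Dpysl3, a collapsin response mediator that relays semaphorin signals, fell from 10.6 ± 1.30 to 2.37 ± 0.80 CPM (log2 ratio -2.16, SE 0.24, edgeR adjusted p = 0.000733). Mmp9, a metalloprotease of the 4 listed sheddases, rose from 13.1 ± 1.38 to 30.4 ± 4.22 CPM (log2 ratio 1.21, SE 0.14, edgeR adjusted p = 0.000825).

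Of the 66 members 16 share exon bases with another gene. How strand was treated in counting is not stated here, so reads of overlapping genes on opposite strands may not have been separated. The largest overlap was that of Efna3, with 14.1% of its exon bases under Gm15998, followed by Plxna1 with 10.7% under Gm26811 and Efna4 with 10.5% under 4731419I09Rik (GENCODE M21). Among the 22 members that passed, the overlap with any 1 other gene was at most 1.35% of the exon bases, in Sema4a.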

How the data were processed

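The values are unnormalized counts of reads, deposited as 1 table per library. The submitters' processing notes list STAR 2.7.0a, featureCounts 1.5.1 and the build mm10. PicoPure extraction, DNase treatment and a SMARTer stranded total RNA kit are named in the labels' protocols. Annotation release, strand setting and multi-mapping were not given in the sources used here. Rows of 1205 transposable element families were left out.

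The test was the quasi-likelihood F test of edgeR 4.0.16 (R 4.3.3; filterByExpr; TMM factors; genotype as the only term; two-sided; threshold 0.05, adjusted over 21314 genes), on 3 libraries per genotype. CPM used the totals of tested genes and TMM factors. The SE is the log2 fold change divided by the square root of F. The fits were also run on simulated counts with 200 changed genes. That is fewer than the 3144 called here, so the error rate of the fits in these data is not known from it. Exon lengths came from GENCODE M21 on GRCm38, the assembly of mm10, for all 66 members.

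The members and lists were chosen with earlier results of these data known. Named were every member that passed, the 2 most abundant tested members per family by CPM per kb of exon, up to 4 other pathway genes per direction with the smallest p, and Dnmt3a. 1 of these pathway genes is not reported here. Members near the threshold, those whose genotypes did not overlap, ligands or receptors of named members, Kit and marker genes were picked once their values had been seen. As alternatives, the fit was repeated with RLE or upper quartile factors, without a filter, with 1 CPM in 3 libraries, DESeq2 1.42.0, limma-voom (limma 3.58.1), the replicate number as a block, and leaving out each library. Figures were drawn with matplotlib 3.10.9.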

Additional observations from a re-analysis of the deposited data

How the results depend on the processing

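No named member that passed the test changed direction in any of the 13 alternatives, and 12 of the 22 lost their call in at least 1. Efna4, which did not pass, changed sign: its log2 fold change was 0.03 in the reported fit, -0.0043 with limma-voom, -0.021 with the replicate block, -0.09 without WT/WT replicate 2, -0.10 without KO/KO replicate 1 and -0.11 without KO/KO replicate 3, and it reached 0.28 without KO/KO replicate 2. Efna1, Efna5 and Sema5a lost their calls with limma-voom (adjusted p of 0.0619, 0.0528 and 0.0624) and, with Sema4g, in the edgeR fit with the replicate block (0.0541, 0.0685, 0.0505 and 0.0593). With limma-voom and likewise with the replicate block, 0 ephrins were higher and 1 lower, and 1 semaphorin was lower. With 1 CPM in 3 libraries 1 Slit or Robo gene was lower, since fewer of them were tested, and with no filter 4 netrin or Unc5 genes were lower. With 1 library left out, the genes called ranged from 814 to 1985 higher and from 560 to 1380 lower, members lower from 6 to 15, Eph receptors higher from 2 to 4, ephrins higher from 0 to 1 and lower from 0 to 2, semaphorins higher from 1 to 3 and lower from 1 to 2, plexins and neuropilins lower from 0 to 1, Slit and Robo genes lower from 0 to 3 and other pathway genes higher from 6 to 12; the cause was not tested. The same-numbered libraries did not deviate together (correlations of -0.09, 0.04 and 0.02), so the numbers were not taken to pair samples; with the replicate block 7 members were higher and 12 lower. Scaling moved the median of all genes by less than 0.1. Of 6284 genes with an unadjusted p under 0.05, 3144 passed the adjustment. Genes under about 1 CPM, such as Slit1 and Sema3g, and the WT/WT level of Sema4a rest on few counts, and differences in Epha3, Epha10 and Robo3 were not detectable at this depth.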
